A study of Rattus norvegicus with 16 samples.

Results

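The 10 genes described here are H19, Igf2, Igf2r, Grb10, Cdkn1c, Dlk1, Plagl1, Mest, Ndn and Gnas, a set of imprinted genes that act on growth. They were picked by symbol from a table of 17147 genes. All 10 were in the table, and all 10 were among the 11658 genes with enough fragments to be tested. The choice was made with the group levels of these same libraries in view, so the changes of the 10 genes over time are given as a description, with SE and no p-value. How many passed the threshold of the fit over all genes is given once, beside the same share of all genes.

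Messenger RNA was sequenced from the supraspinatus, a rotator cuff muscle, of Sprague Dawley rats, in 4 groups of 4 libraries. One group came from unoperated rats (0 days). The other 3 groups came from rats whose supraspinatus was torn through its full thickness on both sides and whose suprascapular nerve was cut out, and were taken 10, 30 and 60 days later. The labels give no genotype, age or sex, no sham-operated group is among the 16 libraries, and tear and nerve loss always occur together, so their effects cannot be told apart. The labels do not say whether the libraries of a group came from separate rats, so any p-value measures only the spread between these samples. Libraries are numbered 1 to 4 within a group as names only.

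An imprinted gene is transcribed mainly from the copy inherited from one parent. H19, a long noncoding RNA read from the maternal copy, and Igf2, an insulin-like growth factor read from the paternal copy, lie side by side and are known to share enhancers through a control region bound by the insulator protein CTCF. H19 is abundant in fetal muscle and in adult skeletal muscle. Igf2r removes IGF2 from the cell surface, Grb10 damps insulin and IGF1 receptor signalling, and Cdkn1c, Dlk1, Plagl1, Mest, Ndn and Gnas act on the cell cycle, on differentiation or on hormone signalling. RNA of the 2 parental copies was not separated, so nothing here measures imprinting itself.

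Each of the 2 paired genes carries a microRNA, which is shown here because it ties a small RNA product to each host transcript. The mature sequences are RefSeq's for the rat assembly GRCr8, 5′ to 3′, with the seed (bases 2 to 8) in capitals. The first pair lies within H19, at chr1:207161766-207161786 and chr1:207161800-207161821 on the minus strand. The second pair lies within Igf2, at chr1:207247865-207247886 and chr1:207247903-207247924 on the minus strand.
rno-miR-675-3p: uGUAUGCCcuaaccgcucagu
rno-miR-675-5p: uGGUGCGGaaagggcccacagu
rno-miR-483-3p: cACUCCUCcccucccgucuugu
rno-miR-483-5p: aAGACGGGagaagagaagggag
The 4 seeds differ from each other, and 0 other rat microRNAs in the RefSeq table carry any of them. Libraries of this kind do not capture mature microRNAs. The row for Mir675 held 0 fragments over all 16 libraries and that for Mir483 held 4, so the microRNAs were not measured.

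Promoters are shown for Igf2 and Dlk1, the 2 of the 10 genes whose 12 injured libraries all lay above all 4 unoperated ones. Each stretch has 120 bases and is printed in the direction of the gene. For Igf2 it ends just before each of 2 RefSeq starts in GRCr8, and for Dlk1 just before the first base of the gene's RefSeq record. Capitals mark CCCTC, the core of the CTCF motif, or its reverse complement GAGGG. The first Igf2 stretch is at chr1:207253981-207254100 and the second at chr1:207250476-207250595, both on the minus strand, and that of Dlk1 is at chr6:134192371-134192490 on the plus strand.
Igf2, first start: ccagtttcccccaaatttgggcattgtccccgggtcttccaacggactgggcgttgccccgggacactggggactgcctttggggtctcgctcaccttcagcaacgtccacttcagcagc
Igf2, second start: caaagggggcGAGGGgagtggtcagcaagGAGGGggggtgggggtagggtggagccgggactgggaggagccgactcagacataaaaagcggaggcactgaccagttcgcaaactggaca
Dlk1: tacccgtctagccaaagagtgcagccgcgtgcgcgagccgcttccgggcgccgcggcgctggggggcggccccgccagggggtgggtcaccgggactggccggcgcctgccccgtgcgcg
The second Igf2 stretch holds the 5 letters 2 times and the other 2 stretches hold them 0 times. RefSeq windows of 300 bases were given for 8 of the 10 genes, 11 windows in all. CCCTC, read on both strands, was in 6 of those 11 windows and in 64.7% of all 33469 rat promoter windows. CANNTG, the E-box bound by myogenic factors, was also in 6 of the 11 and in 72.1% of all windows. A match describes the letters and not a bound site. The counts of fragments per gene do not tell which Igf2 start was used.

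H19 was the gene with the most fragments in all 4 libraries at 10 days. Its level, in fragments per 1 M fragments (M, mega) scaled with TMM factors (CPM), was 10970, 6882, 6209 and 6834 in libraries 1 to 4 at 0 days. At 10 days it was 25646, 21355, 20740 and 39158. At 30 days the values were 10451, 27393, 14567 and 8522, and at 60 days 11153, 7529, 7843 and 6705. Every library at 10 days lay above every library at 0 and at 60 days, while the libraries at 30 days ran from the range of the unoperated group to that of 10 days.

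H19 was 3.46-fold higher at 10 than at 0 days (log2 fold change 1.79 ± 0.33, SE, n = 4 and 4). The value for 30 days was 0.98 ± 0.32, and 0.53 without library 2 of that group, which held 27393 CPM. For 60 days it was 0.11 ± 0.32. Between 30 and 10 days the log2 fold change was -0.81 ± 0.32, and -1.26 to -0.57 when each library was left out in turn.

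As a share of all fragments, with no scaling, H19 took 0.850%, 0.526%, 0.466% and 0.523% in the 4 unoperated libraries. At 10 days it took 3.08%, 2.52%, 2.56% and 4.71%. The shares were 1.20%, 2.89%, 1.47% and 0.924% at 30 days and 1.08%, 0.764%, 0.781% and 0.719% at 60 days. All 4 libraries at 10 days thus again lay above all unoperated ones, and 3 of the 4 at 60 days lay within the range of the unoperated group. By number of fragments, which is not a level per length, H19 ranked between 19 and 24 among all genes at 0 days. At 30 days it ranked 7, 1, 9 and 11 in libraries 1 to 4, and at 60 days 9, 18, 18 and 18.

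**Figure D1:**
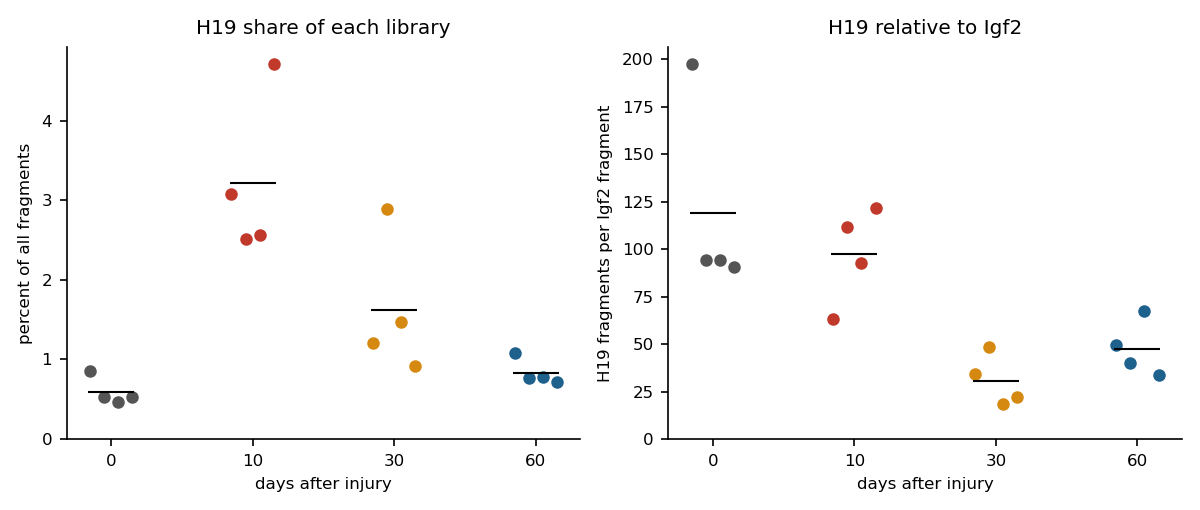
Left, H19 as a percent of all fragments in each library; right, H19 fragments for each Igf2 fragment; points are the 16 libraries by days after injury and bars are group means. The mean share was 0.591% at 0 days and 3.22% at 10 days, and the mean ratio to Igf2 was 119 at 0 days and 30.7 at 30 days.

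Igf2, the growth factor beside H19, was higher at all 3 times and reached its highest mean later, at 30 days. Its level was 55.6, 73.2, 66.0 and 75.3 CPM in the unoperated libraries and 404, 191, 224 and 322 CPM at 10 days. It was 304, 568, 793 and 389 CPM at 30 days and 224, 189, 116 and 200 CPM at 60 days. No injured library fell as low as the highest unoperated one, whereas the ranges at 10 and 30 days overlapped. Against 0 days, Igf2 had log2 fold changes of 2.08 ± 0.30, 2.93 ± 0.31 (7.60-fold) and 1.43 ± 0.29 for 10, 30 and 60 days (SE, n = 4 and 4).

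H19 and Igf2 had their highest means in different groups. The mean number of H19 fragments for each Igf2 fragment was 119 in the unoperated group and 97.4, 30.7 and 47.6 in the groups of 10, 30 and 60 days. The unoperated mean rests on library 1, at 197, while the other 3 were at 90.8 to 94.0, and by medians the order of 0 and 10 days turned, at 94.0 and 102. All 8 libraries of 30 and 60 days lay below all 4 unoperated ones. Between 30 and 10 days Igf2 had a log2 fold change of 0.85 ± 0.29 while that of H19 was -0.81 ± 0.32. The Igf2 value ran from 0.56 to 1.06 when each library was left out in turn. Between 60 and 30 days Igf2 was lower by a log2 fold change of -1.49 ± 0.29, with no overlap of the groups.

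Igf2r, the receptor that takes up IGF2 and carries it to lysosomes, changed little. Its level was 169, 185, 171 and 169 CPM at 0 days and 240, 247, 231 and 215 CPM at 10 days, with no overlap. Libraries of 30 days ran from 177 to 228 CPM (median 191). At 60 days library 1 held 228 CPM and the other 3 held 137 to 159 CPM. Against 0 days, Igf2r had log2 fold changes of 0.43 ± 0.13, 0.18 ± 0.13 and -0.07 ± 0.13 for 10, 30 and 60 days, and the last was above 0 with upper-quartile factors (0.07) or library totals (0.34). Without library 1 of 60 days it was -0.26.

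Grb10, the adaptor that damps insulin and IGF1 receptor signalling, was the member with its lowest mean at 10 days and its highest in unoperated muscle. It held 131, 150, 146 and 111 CPM at 0 days and 74.2, 44.5, 60.3 and 87.0 CPM at 10 days. By 30 days it was back at 120, 121, 118 and 137 CPM, inside the unoperated range, and at 60 days it ran from 91.9 to 122 CPM. For Grb10 the log2 fold change was -1.02 ± 0.16 at 10 days, and -0.36 when libraries were scaled by their totals. At 30 and 60 days it was -0.12 ± 0.16 and -0.29 ± 0.16, values that turned to 0.38 and 0.12 with library totals, and at 30 days to 0.0048 with upper-quartile factors.

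Cdkn1c, an inhibitor of cyclin-dependent kinases that lets cells leave the cycle, had the widest range of the 10 genes and went up late. It held 7.20, 7.92, 7.50 and 7.86 CPM in the unoperated libraries and 12.4, 5.82, 6.85 and 10.1 CPM at 10 days, on both sides of the unoperated level. The 30-day libraries held 28.3, 32.4, 47.3 and 59.7 CPM and those of 60 days 215, 98.8, 68.2 and 108 CPM. Each of these groups lay above the one before it in time, with no overlap from 10 days on. For 10, 30 and 60 days against 0 days, Cdkn1c had log2 fold changes of 0.21 ± 0.35, 2.46 ± 0.34 and 4.01 ± 0.36 (16.1-fold). The 10-day value was 0.87 with library totals and -0.002 without library 1 of that group.

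Dlk1, a membrane protein that holds back the maturation of fat cells and is active in growing muscle, followed Igf2 more than H19 in its group means. It held 2.36, 4.70, 5.04 and 3.31 CPM at 0 days and 13.3, 8.28, 5.93 and 12.2 CPM at 10 days. It held 18.1, 17.4, 12.96 and 22.6 CPM at 30 days and 12.0, 10.4, 6.43 and 19.2 CPM at 60 days. All 12 injured libraries lay above all 4 unoperated ones. Dlk1 had log2 fold changes of 1.35 ± 0.33, 2.19 ± 0.33 and 1.63 ± 0.34 for 10, 30 and 60 days against 0 days, and the 3 injured groups were closer to each other, at 0.84 ± 0.31 between 30 and 10 days and -0.56 ± 0.31 between 60 and 30 days. The first of these 2 differences ran from 0.65 to 1.01 when each library was left out in turn.

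Plagl1, a zinc finger factor known to raise H19, Igf2 and other imprinted genes, had a smaller log2 fold change than both at 10 days. It was also smaller than that of Igf2 at 30 days, and larger than that of H19 at 60 days. At 30 days Plagl1 and H19 had no firm order, at 0.85 ± 0.25 and 0.98 ± 0.32. Without library 2 of 30 days H19 was at 0.53, while Plagl1 ran from 0.71 to 1.05 with each library left out. Its level was 3.94, 6.09, 4.68 and 3.07 CPM at 0 days and 7.69, 3.94, 4.51 and 7.13 CPM at 10 days, where the groups overlapped. Libraries of 30 days ran from 7.20 to 9.32 CPM and those of 60 days from 6.64 to 12.3 CPM, all above the unoperated libraries. Plagl1 had log2 fold changes of 0.38 ± 0.25, 0.85 ± 0.25 and 0.95 ± 0.25 at 10, 30 and 60 days.

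Mest, an imprinted gene of the mesoderm, was split at 10 days, with 6.76, 2.60, 2.54 and 6.45 CPM in libraries 1 to 4 against 3.26, 3.81, 3.79 and 3.11 CPM at 0 days. Libraries 1 and 4 thus lay above the unoperated range and libraries 2 and 3 below it. At 30 days it ran from 4.74 to 7.22 CPM, above all unoperated libraries, with a log2 fold change of 0.78 ± 0.30. It ran from 0.67 to 0.88 when each library was left out in turn. The values at 10 and 60 days were 0.39 ± 0.30 and 0.49 ± 0.30.

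Ndn, which encodes necdin, a protein that restrains the cell cycle and helps muscle precursors differentiate, had the lowest counts of the 10 genes, with 28 to 120 fragments in a library. It held 1.57, 1.797, 1.56 and 1.68 CPM at 0 days and 2.62, 2.85, 4.28 and 3.14 CPM at 30 days, without overlap. At 10 days it ran from 1.35 to 2.52 CPM and at 60 days from 1.798 to 2.80 CPM. Ndn had log2 fold changes of 0.21 ± 0.22, 0.95 ± 0.22 and 0.49 ± 0.23 at 10, 30 and 60 days.

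Gnas, which encodes the stimulatory G protein subunit used by many hormone receptors, had the narrowest spread between replicates at 10 days, at 865, 829, 860 and 871 CPM. Several overlapping transcripts share its locus, and the counts do not tell them apart. The unoperated libraries ran from 1280 to 1382 CPM, those at 30 days from 1102 to 1247 CPM and those at 60 days from 1365 to 1739 CPM. The log2 fold change against 0 days was -0.63 ± 0.085 at 10 days but 0.03 with library totals, so its direction there rests on the scaling. It was -0.18 ± 0.085 at 30 days (0.31 with library totals) and 0.26 ± 0.085 at 60 days. Against 10 days it was higher at 30 days (0.44 ± 0.085) and at 60 days (0.88 ± 0.085), with no overlap in either comparison.

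**Figure D2:**
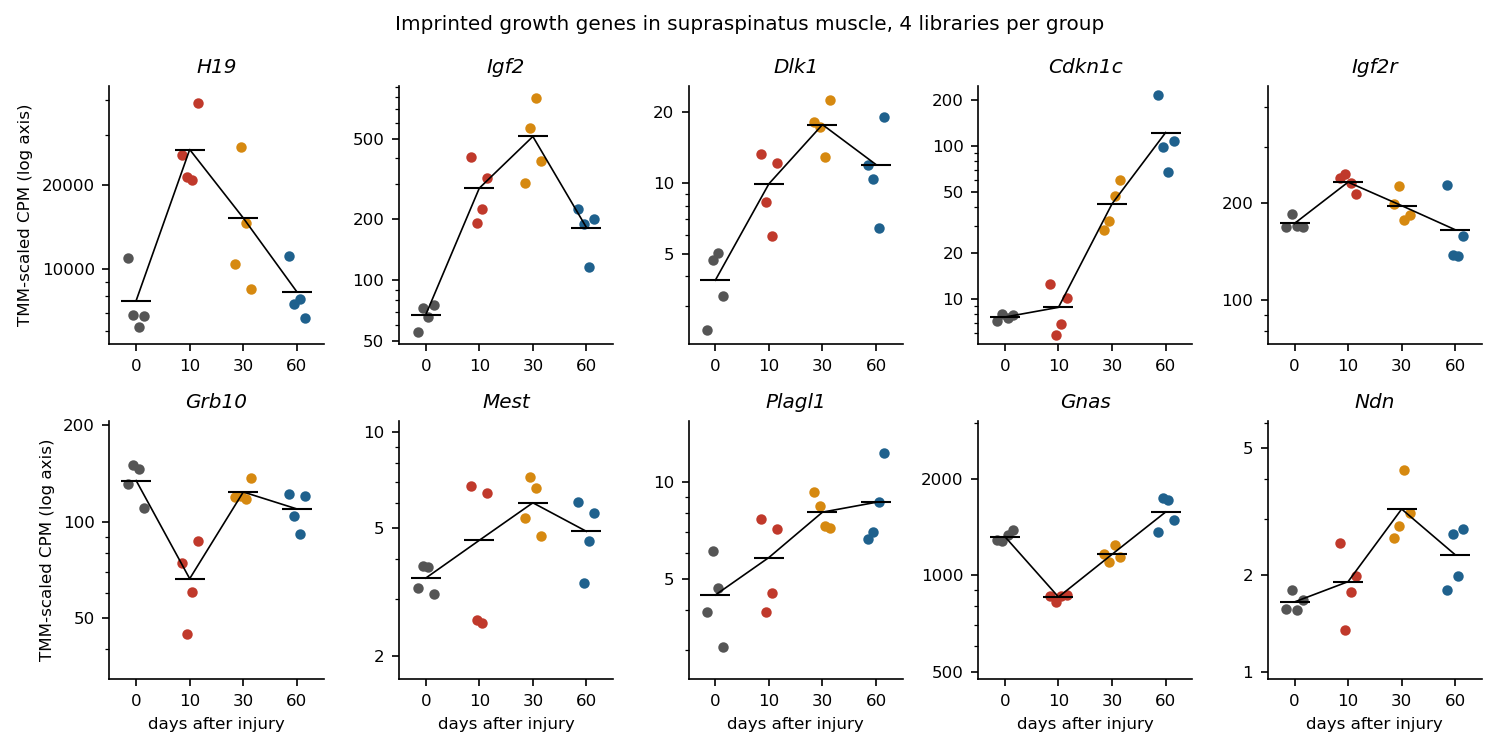
Level of each of the 10 genes (TMM-scaled CPM, log axis) by days after injury; points are the 4 libraries of a group and bars joined by lines are group means. The H19 mean is highest at 10 days (26725 CPM), that of Igf2 at 30 days (513 CPM) and that of Cdkn1c at 60 days (123 CPM), while Grb10 is lowest at 10 days (66.5 CPM).

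The 10 genes thus had no single time course. The mean was highest at 10 days for H19 and Igf2r, at 30 days for Igf2, Dlk1, Mest and Ndn, at 60 days for Cdkn1c, Plagl1 and Gnas, and at 0 days for Grb10. Against 0 days, 6 of the 10 were called at 10 days (4 higher, 2 lower), where 62.7% of all tested genes were called (33.3% higher, 29.4% lower). At 30 days 7 were called, all higher, beside 64.6% of all genes (33.7% higher, 30.9% lower). At 60 days 5 were called, all higher, beside 59% of all genes (29.9% higher, 29.1% lower). A call is an adjusted p under 0.05 in edgeR's quasi-likelihood test with Benjamini-Hochberg adjustment over all 11658 genes. These comparisons were in view when the genes were chosen, and nothing is read from the counts. The 3 comparisons also share the same 4 unoperated libraries.

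Between the injured groups, 7 were called at 30 against 10 days (6 higher, 1 lower), beside 47.3% of all genes (23% higher, 24.3% lower). At 60 against 30 days 3 were called (2 higher, 1 lower), beside 22.6% (10.3% higher, 12.4% lower), and at 60 against 10 days 5 (3 higher, 2 lower), beside 61.1% (29.1% higher, 31.9% lower). The count of 7 was 4 without library 2 of 10 days, and the count of 3 was 5 without library 1 of 60 days. The median log2 fold change of the 10 genes was 0.39, 0.90 and 0.49 at 10, 30 and 60 days against 0 days, beside 0.061, 0.046 and 0.040 over all tested genes. Igf2 and Dlk1 were called higher at all 3 times, as were 16.6% of all genes. With library totals in place of TMM factors the median of all genes moved up by 0.66, 0.49 and 0.41 at the 3 times, so every fold change here is relative to the bulk of the genes.

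**Figure D3:**
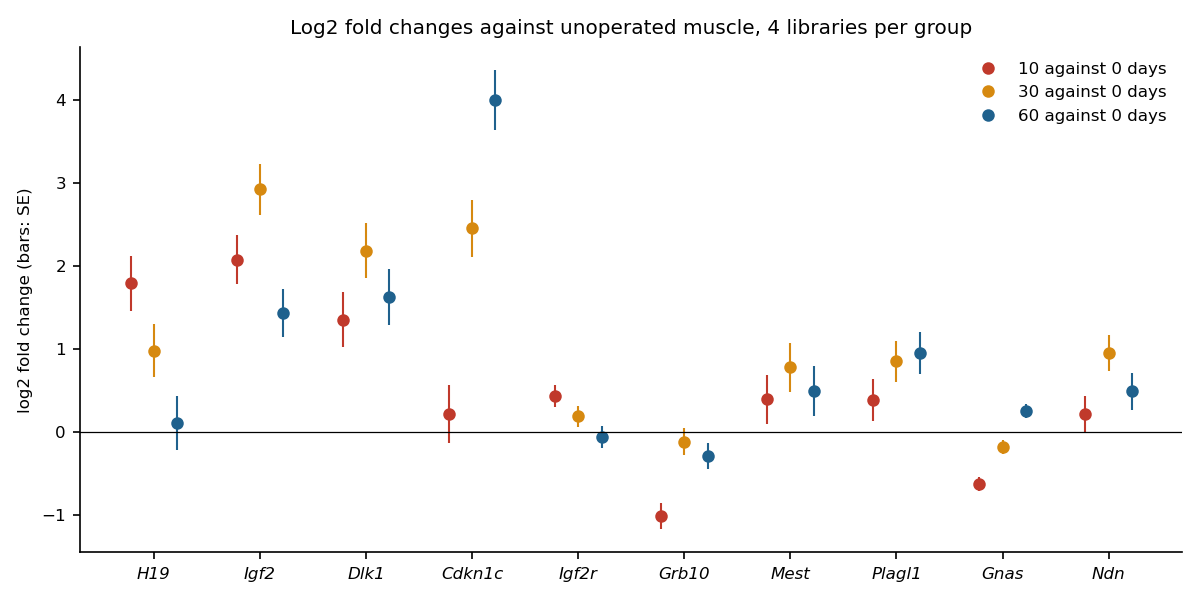
Log2 fold change of each of the 10 genes at 10, 30 and 60 days against 0 days, with bars of 1 SE; each point rests on 4 against 4 libraries. The largest value is that of Cdkn1c at 60 days (4.01) and the smallest that of Grb10 at 10 days (-1.02), a value of -0.36 with library totals.

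Whether libraries rich in H19 were also rich in Igf2 and Dlk1 was asked within groups, with each group's mean removed, because the group means had guided the choice of genes. At 0 days the library with the most H19, library 1, had the least Igf2 (55.6 CPM) and the least Dlk1 (2.36 CPM). At 10 days library 4 led in H19 and was the second for Igf2 (322 CPM) and Dlk1 (12.2 CPM). At 30 days library 2 led in H19 and was the second for Igf2 (568 CPM) and the third for Dlk1 (17.4 CPM), and at 60 days library 1 led in both H19 and Igf2 (224 CPM) and was the second for Dlk1 (12.0 CPM). The highest library was thus shared with Igf2 in 1 of 4 groups and with Dlk1 in 0 of 4.

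Over the 16 libraries, with group means removed, H19 and Igf2 had a Pearson r of 0.41 (exact permutation p = 0.254, two-sided, over 331776 rearrangements within groups; adjusted p 0.734 over the 9 pairs of H19 with another member). Spearman's rho was 0.61 (exact permutation p = 0.0664, adjusted p 0.299). Without the 2 libraries farthest from the median in H19, library 2 of 30 days and library 4 of 10 days, r was 0.37. H19 and Dlk1 had an r of -0.15 (exact permutation p = 0.564, adjusted p 0.846) and a rho of -0.17 (exact permutation p = 0.530), and r was -0.41 without the same 2 libraries. Neither relation passed the test, and this does not show that the genes vary apart.

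Of the 9 pairs, that of H19 with Mest had the highest r, 0.52 (exact permutation p = 0.0254, adjusted p 0.229), with a rho of 0.62 (exact permutation p = 0.0282, adjusted p 0.253). It did not hold after adjustment, and r was 0.37 without the same 2 libraries. H19 and Mest lay on the same side of their group means in 11 of 16 libraries, H19 and Igf2 in 10, and H19 and Dlk1 in 7.

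**Figure D4:**
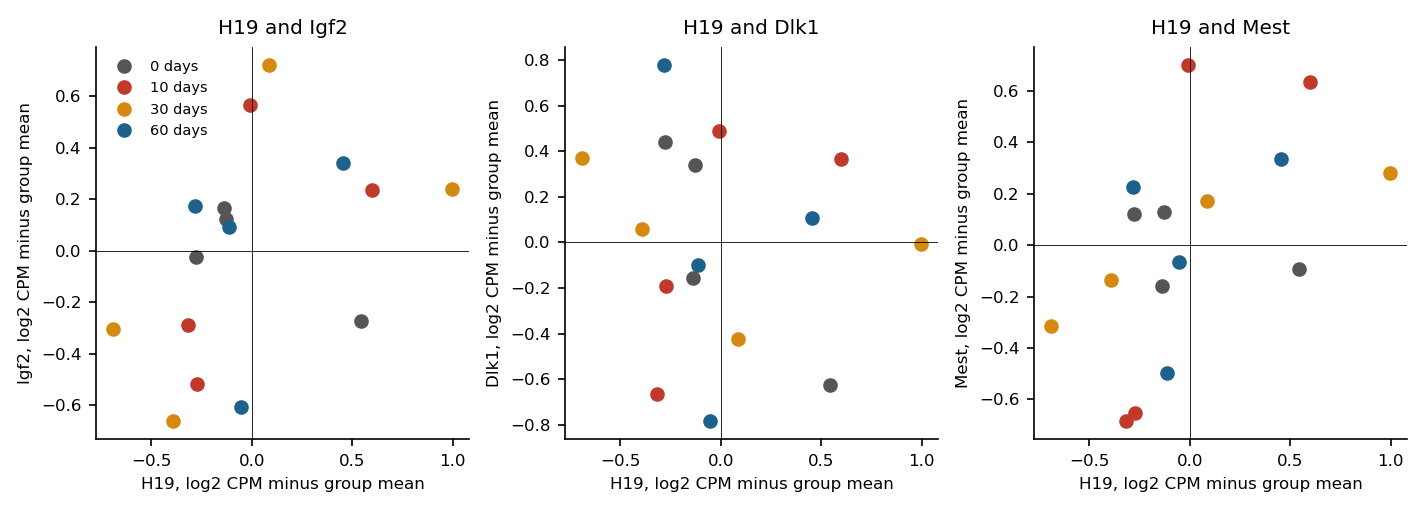
H19 against Igf2, Dlk1 and Mest, each as log2 CPM minus the mean of its group, so that 0 is the group mean on both axes; points are the 16 libraries coloured by days after injury. The Pearson r was 0.41 for Igf2, -0.15 for Dlk1 and 0.52 for Mest, and none of the 3 passed after adjustment over 9 pairs.

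At 10 days libraries 1 and 4 were the 2 highest for 9 of the 10 genes, all but Igf2r. Markers of fibroblasts, fat cells and tendon were also highest in those 2 libraries. The sums of mature fibre, immature fibre, satellite cell, macrophage, endothelial and Schwann cell markers were not. Macrophage markers, for example, summed to 66.7, 57.9, 61.3 and 47.5 CPM in libraries 1 to 4, lowest in library 4. The summed level of the 8 fibroblast marker genes (Pdgfra, Lum, Col1a1, Col1a2, Col3a1, Mfap5, Dpt and Pi16) was 2220, 643, 1113 and 1775 CPM in libraries 1 to 4. Fat cell markers summed to 49.8, 28.2, 26.4 and 46.8 CPM and tendon markers to 121, 100.4, 108 and 111 CPM. At 60 days libraries 1 and 4 were the 2 highest for 6 genes, but all 3 sums were highest in libraries 3 and 4. The fibroblast sum was then 1124, 873, 1607 and 1916 CPM in libraries 1 to 4. At 0 and 30 days libraries 2 and 3 were the 2 highest in the fibroblast and fat cell sums, and for 5 and 3 of the genes. Over the groups the fibroblast sum ran from 302 to 718 CPM without injury, and from 643 to 2220, 965 to 1869 and 873 to 1916 CPM for 10, 30 and 60 days. Col1a2 was listed at 0 in every library, and of the 7 tested markers 4 rose at 10 days and 7 at 30 and at 60 days, next to 33.3%, 33.7% and 29.9% of all tested genes that rose. The part of these cells in the members' levels was not tested, and in whole muscle more cells of a type and more RNA per cell cannot be told apart.

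Markers of other cells moved over the same times. The summed level of 7 mature fibre markers, which include Acta1 and Ckm, had a median of 219597 CPM at 0 days and then 63785, 118211 and 127941 for 10, 30 and 60 days, so the labelled tissue's markers were abundant in every library. Of these 7, Mb rose at each time while 6, 6 and 5 fell, next to 29.4%, 30.9% and 29.1% of all tested genes that fell. The summed level of 8 markers of immature or denervated fibres, such as Myog and Chrna1, had medians of 370, 2799, 3348 and 1642 CPM. At 10, 30 and 60 days 7, 7 and 6 of the 8 rose, next to 33.3%, 33.7% and 29.9% of all tested genes. Myh8 fell at 10 and at 60 days (137 CPM at 0 days; 72.8 and 65.1 CPM then). Satellite cell markers summed to 25.4 to 48.9 CPM over all libraries. Of these 5 genes 1, 2 and 3 rose at 10, 30 and 60 days, next to 33.3%, 33.7% and 29.9% of all tested genes. At each time 1 fell, next to 29.4%, 30.9% and 29.1%. The 1 that fell was Cdh15, from 32.2 CPM to 15.4, 17.7 and 20.0 CPM, the last not called with library totals. Myf5 rose at each time, from 2.45 CPM to 8.37, 8.44 and 5.39 CPM. Macrophage markers had medians of 22.1, 59.6, 77.5 and 61.7 CPM, and fat cell markers of 42.8, 37.5, 47.1 and 133 CPM. Schwann cell markers had medians of 54.6, 27.0, 70.1 and 148 CPM, and 5 of 5 rose at 60 days, next to 29.9% of all genes. Endothelial markers had medians of 298, 189, 241 and 340 CPM, and 5 of 5 fell at 10 days, next to 29.4% of all genes. These 5 falls were called with TMM factors. Scaling by library totals instead shifted 10-day log2 fold changes up, by 0.66 at the median, so the smaller falls may rest on the scaling. Pecam1, for example, went from a mean of 59.2 CPM at 0 days to 44.4 CPM, and Kdr from 59.2 to 24.1 CPM. Tendon markers had medians of 50.1, 110 and 88.3 CPM at 0, 10 and 30 days. At the latter 2 times 3 of 3 rose, next to 33.3% and 33.7% of all tested genes. The median was 53.5 CPM at 60 days, where 2 rose (Tnmd and Fmod) and 1 fell. The latter was Scx, with a mean of 23.8 CPM at 0 days and 7.33 CPM at 60 days. Their part in the members' time courses was not tested.

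The genes whose level over the 16 libraries was most like that of H19, by Pearson r of log2 CPM among 8235 genes, were Relt (0.88), Whsc1 (0.87), Aph1a (0.87), Ypel2 (0.86) and Hsd11b2 (0.86). With group means removed these values were 0.36 to 0.48, so the likeness lay largely in the group means. Igf2 stood at rank 1319 of this order and Dlk1 at rank 3047. For Igf2 the most like were Comp (0.94), a matrix protein of cartilage and tendon, then Ephb3, Armcx2, Prelid1 and Bad (each 0.91). With group means removed the values were 0.81 for Comp, 0.66 for Prelid1, 0.41 for Bad, 0.17 for Ephb3 and 0.10 for Armcx2. For Dlk1 they were Arhgef2 (0.93) and then Smoc2, Ilk, Mrc1 and Tspo (each 0.92), all above Igf2, which stood at rank 144 for Dlk1. In turn Dlk1 stood at rank 121 for Igf2. With group means removed the 5 values for Dlk1 were 0.67, 0.85, 0.95, 0.69 and 0.73 in the order named. These values describe 16 libraries that share 4 group means and carry no test.

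In the wider IGF system (ligand, receptors, binding proteins and their regulators), 16 of the 19 genes found were tested. At 10 days 7 rose and 7 fell against 0 days, at 30 days 8 rose and 5 fell, and at 60 days 8 rose and 4 fell. These are 87.5%, 81.2% and 75% of the 16 tested genes, next to 62.7%, 64.6% and 59% of all tested genes. The median log2 fold changes were -0.32, 0.51 and 0.39, beside 0.061, 0.046 and 0.040 over all tested genes. Genes named from this and the later lists were picked by a naming rule, for the largest called changes in these same libraries. Their adjusted p-values therefore describe that choice and are no separate support. Igfbp5, a binding protein of the IGFs that is known to act in muscle differentiation, rose most at 10 days. Its level was 67.5 CPM ± 5.97 (SD, n = 4) without injury and 615 ± 114, 186 ± 18.0 and 50.0 ± 9.79 for 10, 30 and 60 days. The log2 fold change was 3.19 at 10 days (edgeR adjusted p = 1.21e-10) and 1.46 at 30 days (edgeR adjusted p = 2.03e-07). At 60 days it was -0.43 (edgeR adjusted p = 0.0140), and -0.02 and not called with library totals; the call was also lost without library 2 of 60 days.

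Igfbp4, another binding protein, rose at all 3 times, with log2 fold changes of 1.19, 1.74 and 1.41 (edgeR adjusted p = 0.000288, 9.71e-06 and 9.51e-05). Igfbp6, a binding protein that prefers IGF2, fell at 10 days and rose at 60 days, with log2 fold changes of -0.91 and 1.20 (edgeR adjusted p = 0.0103 and 0.00180). Its fall was -0.26 and not called with library totals. Igf1r, the receptor through which both IGFs signal, rose by 1.70, 1.25 and 0.67 on the log2 scale (edgeR adjusted p = 2.09e-06, 6.81e-05 and 0.0132).

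Igf2bp2, which binds the messenger RNA of Igf2, rose at 10 days, by 1.73 on the log2 scale (edgeR adjusted p = 5.45e-05). Its rise of 0.76 at 30 days (edgeR adjusted p = 0.0293) was lost in 4 of the 16 fits that leave out 1 library, those without library 1, 2 or 4 of 0 days or library 1 of 30 days. Stc2, an inhibitor of the protease that frees IGFs from Igfbp4, fell at all 3 times, with log2 fold changes of -1.18, -1.87 and -1.95 (edgeR adjusted p = 0.000201, 3.70e-06 and 5.59e-06). Igf1, the other ligand, lies outside the naming rule and was looked up after the values were seen. It went from 5.68 CPM ± 0.554 at 0 days to 8.99 ± 2.29, 13.1 ± 0.591 and 13.6 ± 3.14 (SD, n = 4), with log2 fold changes of 0.66, 1.21 and 1.26 (edgeR adjusted p = 0.00318, 1.60e-05 and 1.60e-05).

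**Figure D5:**
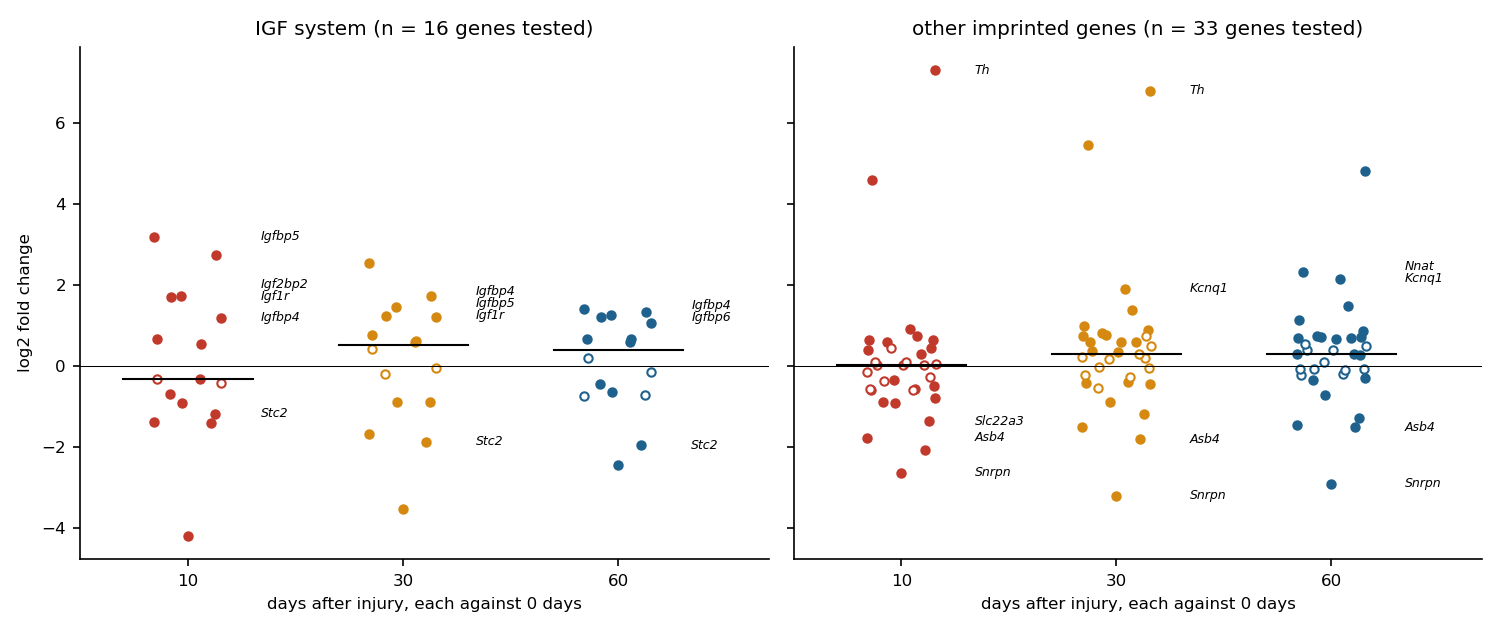
Log2 fold change against 0 days of the 16 tested genes of the IGF system (left) and of the 33 other imprinted genes (right) at 10, 30 and 60 days; filled points have an adjusted p under 0.05, the horizontal bars are medians, and named genes beyond a log2 fold change of 1 are labelled. Igfbp5 stands at 3.19 at 10 days, and the medians of the other imprinted genes are 0.022, 0.30 and 0.30.

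Of 33 other imprinted genes tested, 10 rose and 11 fell at 10 days, 14 rose and 8 fell at 30 days, and 15 rose and 7 fell at 60 days. In all, 63.6%, 66.7% and 66.7% of them were called, next to 62.7%, 64.6% and 59% of all genes. Th, the enzyme that begins catecholamine synthesis and the neighbour of Igf2 on its chromosome, was close to 0 in unoperated muscle, with 0, 4, 1 and 0 fragments (0, 0.147, 0.0446 and 0 CPM). At 10 days it held 5.19, 14.9, 8.37 and 9.71 CPM and at 30 days 20.9, 0.142, 2.12 and 3.90 CPM, and it rose at both times (edgeR adjusted p = 0.00028 and 0.000624). At 60 days it was back at 0 to 4 fragments in a library. The library with the most H19 had the least Th of its group at 30 days (library 2), but the second most at 10 days (library 4). The relation of H19 and Th was not tested.

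Other imprinted genes moved at other times. Nnat, a small membrane protein of developing nerve and fat, rose by 2.33 on the log2 scale at 60 days (edgeR adjusted p = 8.09e-06), from 6.38 CPM ± 2.80 to 32.2 ± 8.80 (SD, n = 4). Its rises of 0.75 at 10 days and 0.74 at 30 days were lost without library 1, 2 or 4 of 0 days, the first also without library 4 of 10 days and the second without library 3 or 4 of 30 days. Kcnq1, a potassium channel from the same cluster as Cdkn1c, rose by 1.91 and 2.15 at 30 and 60 days (edgeR adjusted p = 0.000341 and 0.000163), the times at which Cdkn1c was high. Its value at 10 days was -0.56 (edgeR adjusted p = 0.256). Other genes of that cluster, outside the naming rule and looked up after the values were seen, did not all move this way. Nap1l4 went from 377 CPM ± 11.3 at 0 days down to 254 ± 13.1, 203 ± 14.8 and 229 ± 27.2 (SD, n = 4). Cd81 went from 155 CPM ± 8.61 to 165 ± 10.2, 197 ± 6.58 and 190 ± 16.8 (SD, n = 4).

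Snrpn, a splicing protein gene of the cluster that also holds Ndn, fell by 2.63, 3.20 and 2.90 on the log2 scale (edgeR adjusted p = 2.98e-05, 7.59e-06 and 3.41e-05), whereas Ndn was higher at 30 days. Snrpn shares its locus with Snurf, so its counts are uncertain. Asb4, an adaptor of ubiquitin ligases, fell at all 3 times, by 1.77, 1.81 and 1.51 (edgeR adjusted p = 8.55e-05, 7.93e-05 and 0.000565). Slc22a3, a transporter from the Igf2r cluster, fell at 10 days, by 1.35 (edgeR adjusted p = 0.00147), and its value was -0.70 and not called with library totals. Dio3, which inactivates thyroid hormone and shares a cluster with Dlk1, lies outside the naming rule because of its low level; it held 0 or 1 fragment in each unoperated library and 20 to 36, 23 to 88 and 9 to 35 fragments at 10, 30 and 60 days (edgeR adjusted p = 1.51e-05, 1.37e-06 and 1.52e-05).

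Genes that lie near H19 and Igf2 but are not known to be imprinted were counted as well. Of 8 tested, 1 rose and 5 fell at 10 days, 0 rose and 5 fell at 30 days and 0 rose and 4 fell at 60 days, with median log2 fold changes of -0.66, -0.42 and -0.24. Over all tested genes the medians were 0.061, 0.046 and 0.040. The called shares of 75%, 62.5% and 50% lay near the 62.7%, 64.6% and 59% of all genes. Mrpl23, a mitochondrial ribosome protein gene next to H19, was the 1 that rose, by 0.42 at 10 days (edgeR adjusted p = 0.000404), and its values at 30 and 60 days were 0.16 and 0.09. Tnnt3 and Tnni2, genes of fast fibre troponins, fell at 10 days by 1.10 and 1.55 on the log2 scale (edgeR adjusted p = 9.42e-07 and 3.89e-08). Dusp8, a phosphatase of MAP kinases, and Syt8 fell by 3.05 and 2.39 at 10 days (edgeR adjusted p = 1.25e-05 and 1.55e-05). Ctsd, a lysosomal protease, fell by 0.22 at 10 days (edgeR adjusted p = 0.0236), but was at 0.44 with library totals, and the call was lost without library 2 or 4 of 0 days or library 4 of 10 days.

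Among 9 tested regulators of imprints and of H19 and Igf2, 3 rose and 3 fell at 10 days, 4 rose and 4 fell at 30 days and 3 rose and 3 fell at 60 days. These are 66.7%, 88.9% and 66.7%, next to 62.7%, 64.6% and 59% of all genes. The 2 DNA methyltransferases that set new methylation moved in opposite directions. Dnmt3a fell from 36.9 CPM ± 1.51 to 8.94 ± 1.04, 8.91 ± 1.79 and 13.3 ± 1.08 (SD, n = 4), or by 2.04, 2.05 and 1.47 on the log2 scale (edgeR adjusted p = 1.14e-09, 1.48e-09 and 7.35e-08). Dnmt3b rose from a low 1.43 CPM ± 0.358 by 0.68, 1.02 and 1.14 (edgeR adjusted p = 0.00919, 0.000435 and 0.000235). Trim28, which protects imprints in the embryo, rose by 0.33 at 10 days (edgeR adjusted p = 0.000993).

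Cdkn1c can be set beside its relatives. Of 15 tested cell cycle inhibitors and Notch genes, 8 rose and 5 fell at 10 and at 30 days, and 8 rose and 1 fell at 60 days. These are 86.7%, 86.7% and 60%, next to 62.7%, 64.6% and 59% of all genes. Cdkn1a, the inhibitor p21, was already at its full height at 10 days, from 46.9 CPM ± 12.0 at 0 days to 1695 ± 222, 1698 ± 202 and 1238 ± 643 (SD, n = 4). Its log2 fold changes were 5.18, 5.18 and 4.72 (edgeR adjusted p = 2.36e-09, 3.01e-09 and 1.50e-08), whereas those of Cdkn1c were 0.21, 2.46 and 4.01. Cdkn2b rose by 3.24, 3.19 and 1.52 (edgeR adjusted p = 7.01e-07, 1.07e-06 and 0.00142). Cdkn2c had the order of Cdkn1c at a smaller size, at 0.50, 1.03 and 1.24 (edgeR adjusted p = 0.0438, 0.000345 and 9.43e-05), and the call at 10 days missed the threshold in 8 of 16 fits leaving out 1 library, those without library 1, 3 or 4 of 0 days, 1 or 4 of 10 days, or 2, 3 or 4 of 30 days.

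Of the Notch genes, Notch2 rose by 1.81, 1.99 and 1.56 on the log2 scale (edgeR adjusted p = 1.46e-09, 8.70e-10 and 2.28e-08). Its ligand gene Dll1, a relative of Dlk1, rose by 1.32 and 0.94 at 10 and 30 days (edgeR adjusted p = 1.03e-05 and 0.000324) and was at 0.26 at 60 days (edgeR adjusted p = 0.251). Hes1, a target of Notch, rose by 0.65, 0.77 and 1.23 (edgeR adjusted p = 0.00409, 0.00121 and 2.59e-05). Other Notch genes, outside the naming rule and looked up after the values were seen, fell at 10 and 30 days. Notch1 fell by 0.77 and 0.51 (edgeR adjusted p = 0.000329 and 0.00776), Notch3 by 0.57 and 0.52 (edgeR adjusted p = 0.00255 and 0.00472), Dll4 by 1.09 and 0.74 (edgeR adjusted p = 0.000247 and 0.00508) and Hey1 by 0.65 and 0.81 (edgeR adjusted p = 0.00344 and 0.000705). With library totals none of these 8 falls was called, and the values of Notch3 and Hey1 at 10 days turned to 0.089 and 0.0071.

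Library totals ran from 17.2 to 39.9 M fragments, and the 4 libraries at 60 days, at 17.2 to 22.4 M, were the smallest. A count of 3 fragments, the least taken as detected, stood for 0.0712 to 0.175 CPM. This limit covers counting error alone, because PCR copies of a molecule are counted as separate fragments. All 10 genes lay above it in every library. Mean TMM factors were 0.763, 1.20, 1.08 and 1.01 at 0, 10, 30 and 60 days.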

How the data were processed

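RNA of the supraspinatus was turned into TruSeq mRNA libraries, per the labels' protocols. The authors deposited expected counts in a single table: fragments of each gene and library, scaled neither for depth nor for length, with a fractional value in 233 of 17147 genes. Per the submitters' processing notes the tools were bcl2fastq 1.8.4, FastQC, TopHat2 2.0.9, Bowtie2 2.1.0.0, Cufflinks and Cuffdiff 2.1.1, with build rn5. Strandedness and annotation are not given in the sources used here, so overlapping antisense genes cannot be told apart.

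Counts were rounded, filtered with filterByExpr by group, scaled with TMM factors and fitted with edgeR 4.0.16 (quasi-likelihood, robust, R 4.3.3) over all 16 libraries. Benjamini-Hochberg adjustment was over 11658 genes, and a gene was called at an adjusted p under 0.05. SE is the log2 fold change divided by the square root of F. The common biological coefficient of variation was 0.150. Groups were taken from the labelled time. Within-group correlations used log2 CPM with a prior count of 2. Of the table's symbols, 14500 were matched to RefSeq GRCr8, whose sequences were used; its coordinates are not those of rn5.

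The members and gene lists were chosen with earlier results of these data known. Named genes were all members and, from each list, up to 6 with the largest called change and a mean of at least 1 CPM. Listed symbols that were not found, among them Meg3 and Peg3, were not analysed here. Alternatives were RLE and upper-quartile factors, library totals, DESeq2 1.42.0, limma-voom (limma 3.58.1), other filters, fits without robust estimation, the 2 groups alone, a threshold of 0.01, the title letter, the replicate block and leaving out each library. The methods were tested on simulated data.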

Additional observations from a re-analysis of the deposited data

Results flagged for a closer look

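Among 40 groups of 4 libraries (10 genes at 4 times), 3 held a library far from the other 3, by the gap to its neighbour relative to the range of the group. Chance gives about 1 in 20. H19 at 0 days was 10970 CPM in library 1, where the next was 6882 CPM. Igf2r at 0 days was 184.9 CPM in library 2, where the next was 170.6 CPM. Grb10 at 30 days was 137.4 CPM in library 4, where the next was 120.8 CPM.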

How the results depend on the processing

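Under the alternatives, 374 of 380 values of the main comparisons kept their direction and side of the threshold or, for counts of genes, stayed within 1.5 times. The cause of the exceptions was not tested. Members called at 60 against 0 days were 8 with library totals. At 30 against 10 days 4 were called with the title letter, 4 at an adjusted p under 0.01 and 4 without library 2 of 10 days. The title letter is an L or R in the sample titles, whose meaning the labels do not give. Most libraries of 10 days carry R and most of 30 days carry L, so letter and time cannot be fully told apart there. Leaving out each library in turn gave 6 to 6 members at 10, 5 to 8 at 30 and 4 to 7 at 60 against 0 days, 4 to 8 at 30 against 10 days, 3 to 5 at 60 against 30 days (5 without library 1 of 60 days) and 5 to 6 at 60 against 10 days. The r of H19 and Igf2 ran from 0.33 to 0.53, and that of H19 and Dlk1 from -0.28 to 0.0040, the last without library 1 of 0 days. Some directions turned over, among them that of Gnas at 10 days, which was -0.63 with TMM factors. Library totals gave 0.34 for Igf2r and 0.12 for Grb10 at 60 days, 0.38 for Grb10 and 0.31 for Gnas at 30 days and 0.033 for Gnas at 10 days, all against 0 days. Upper-quartile factors gave 0.072 for Igf2r at 60 days and 0.0048 for Grb10 at 30 days. Leaving out each library gave -0.072 to 0.34 for H19 at 60 days, -0.0022 to 0.37 for Cdkn1c at 10 days and -0.26 to 0.014 for Igf2r at 60 days. The column names carry a suffix that recurs in every group, but libraries with the same suffix did not deviate together from their groups (mean correlation over genes 0.0013 for 24 pairs, from -0.24 to 0.22). With this suffix as a replicate block, the r of H19 was 0.44 with Igf2 (permutation p = 0.235) and -0.20 with Dlk1 (permutation p = 0.340). The rearrangements within groups did not keep this block, so both p-values are approximate. The alternative without the 2 libraries farthest in H19 was set with the test. Genes with few fragments, such as Ndn and the unoperated values of Th and Dio3, carry the most counting error, and the 60-day libraries were the shallowest.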
